A study of Bos taurus with 8 samples.

Results

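The 10 genes described here encode calcium-regulated membrane proteins and secreted sugar-binding proteins: the annexins ANXA1, ANXA2, ANXA4 and ANXA5, the S100 proteins S100A4, S100A6, S100A10 and S100A11, and the galectins LGALS1 and LGALS3. They were taken by symbol from the deposited expression table, which lists 16606 genes. S100A6 was not analysed here, so 9 members have values, and 8 of them reached the mean of 1 CPM (reads per 1000000 reads) required for testing. The libraries came from 4-cell and from 8-cell bovine embryos, each from a pool of 5 embryos, in 4 groups of 2. Control and edited embryos at both stages derived from slaughterhouse oocytes that were matured in culture and fertilised with frozen Holstein semen. The edited embryos were in addition injected into the cytoplasm as zygotes with PEmax, a prime editor that joins a nicking Cas9 to a reverse transcriptase, and a guide RNA for the RPL12 change that the labels call RPL12A148G. The titles call the edited samples base edited whereas the protocol describes prime editing, and the 4-cell samples carry the cell type label oocytes although their titles say embryo. Injection of the controls, removal of cumulus cells and the share of edited alleles are not given in the sources used here. Nothing in the labels says that the libraries of a group came from separate cultures, so p-values measure only the spread between these libraries, which may be technical.

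Annexins bind negatively charged phospholipids when calcium rises, and they act in membrane trafficking, membrane repair and the organisation of actin at the membrane. S100 proteins are small EF-hand proteins that dock onto target proteins, annexins among them. S100A10 no longer responds to calcium, forms a stable complex with ANXA2 and is carried by it to the plasma membrane. Galectins bind beta-galactosides on glycoproteins inside and outside the cell. The early embryo lives largely on transcripts stored by the oocyte until its own genome is switched on.

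Between 33527531 and 35122409 reads per library were recovered from the deposited values, and 3 reads correspond to between 0.0858 and 0.0899 CPM. RPL12 itself stood at 159 and 174 CPM in 4-cell controls, at 27.5 and 33.6 CPM in 4-cell edited, at 96.3 and 97.6 CPM in 8-cell controls and at 14.1 and 11.9 CPM in 8-cell edited embryos. All 12 of the listed oocyte and early embryo markers were detected in every library. Each tested member had at least 277 reads in each library. Intervals and limits from reads cover counting error alone, since amplified reads without molecular identifiers are not independent molecules.

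Transcripts of 7 members were several-fold lower in edited than in control embryos at both stages, and LGALS3 was the exception. The 9 members together took 1.01% and 0.769% of all reads in the 4-cell control libraries, and 0.426% and 0.541% in the 8-cell controls. In edited libraries they took 0.133% and 0.200% at the 4-cell stage and 0.110% and 0.0961% at the 8-cell stage. The members' share was thus lower in each edited library than in each control library. These are pooled embryos, in which fewer cells of a type and less RNA per cell cannot be told apart.

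**Figure D1:**
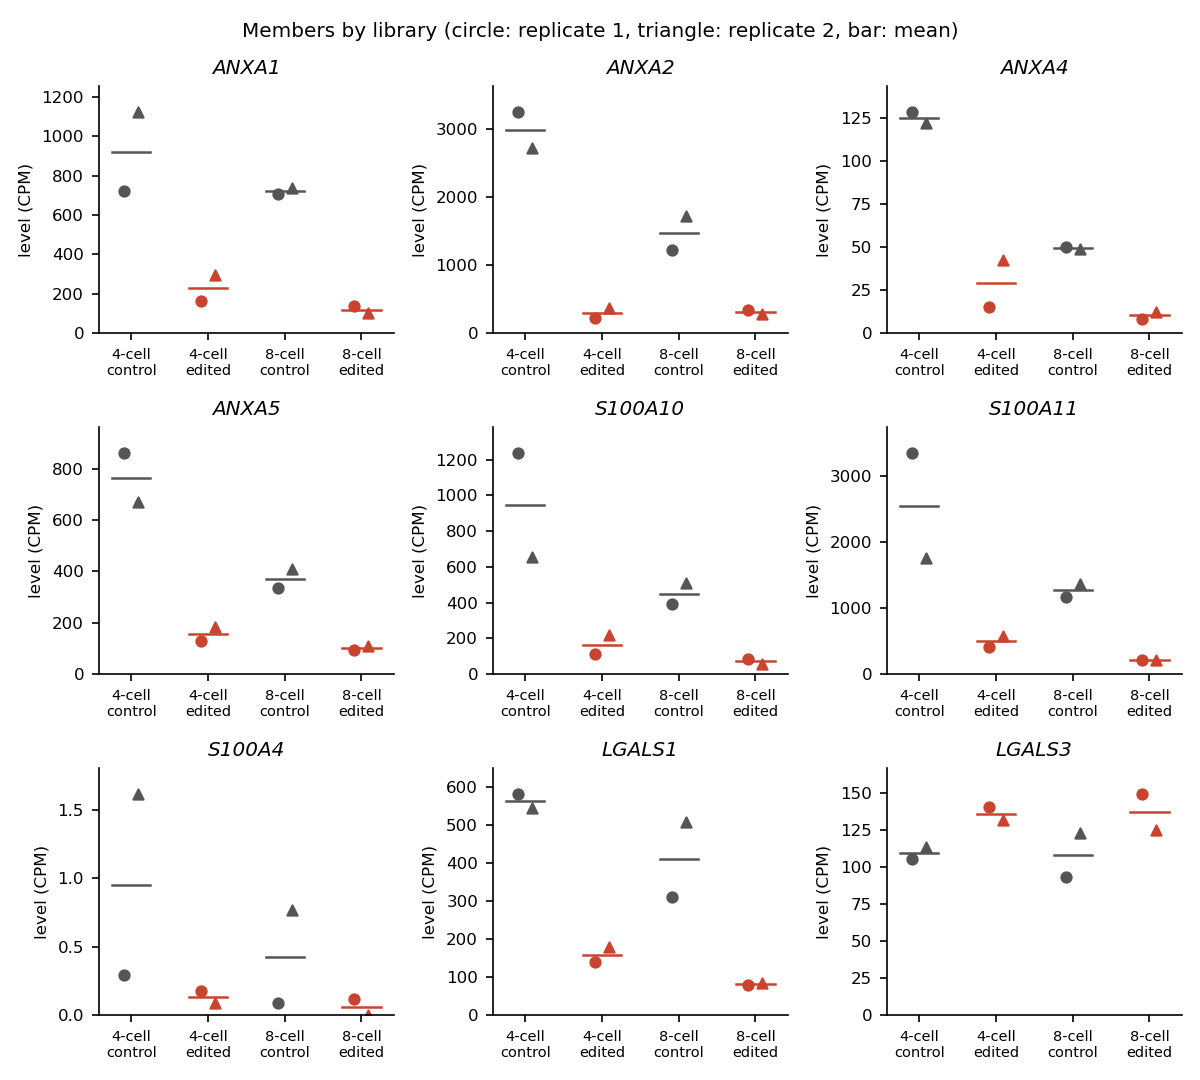
Level of each of the 9 members in CPM (vertical axis, linear, from 0) in the 8 libraries, grouped by stage and by control (grey) or edited (red) embryos; circles are replicate 1, triangles replicate 2 and bars the mean of each pair. In 7 of the panels each red point lies under each grey point, the S100A4 panel spans only 0 to 1.61 CPM, and in the LGALS3 panel the red points lie just over the grey ones.

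At the 4-cell stage 7 of the 8 tested members were called lower in edited embryos and 0 higher, at an adjusted p under 0.05 by limma. Over all 12129 tested genes 25.8% were called lower there and 18.9% higher. The members' median log2 difference was -2.27, against -0.016 over all tested genes. At the 8-cell stage the same 7 members were called lower, against 14.5% of all tested genes (1.08% were called higher), with a median of -2.26 for the members and 0.0046 for all genes. Averaged over both stages 7 were again called lower, against 27.2% of all tested genes (17.6% were called higher). In these 7 all 4 edited libraries lay under all 4 control libraries, which held for 19.6% of tested genes. The 2 stage comparisons contrast different libraries, but their tests share 1 estimate of the spread from all 8 libraries. Their p-values are therefore not independent.

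Of the annexins, ANXA2 had the largest difference at the 4-cell and ANXA1 at the 8-cell stage. ANXA2, which organises cholesterol-rich membrane patches and binds actin and S100A10, stood at 3236 and 2708 CPM in 4-cell controls and at 216 and 365 CPM in 4-cell edited embryos. In 8-cell controls it stood at 1218 and 1712 CPM and in 8-cell edited embryos at 337 and 273 CPM. The edited libraries of both stages thus lay close together while the control level fell between the stages. The ratio of the means, control over edited, was 10.2 in 4-cell and 4.80 in 8-cell embryos. On the log2(CPM + 1) scale, which understates changes of weak genes, the differences were -3.40 (SE 0.261, limma adjusted p 6.43e-07) and -2.25 (SE 0.261, limma adjusted p 2.35e-05).

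ANXA1, a mediator that restrains inflammation through formyl peptide receptors, stood at 723 and 1122 CPM in 4-cell controls and at 162 and 296 CPM in 4-cell edited embryos. At the 8-cell stage its values were 706 and 736 CPM in controls and 136 and 100.1 CPM in edited embryos. The control level of ANXA1 thus overlapped between the stages. Its log2 differences were -2.04 (SE 0.284) and -2.62 (SE 0.284), with limma adjusted p of 4.02e-05 and 1.37e-05.

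ANXA5, the annexin used to stain exposed phosphatidylserine, stood at 859 and 670 CPM in 4-cell controls against 127 and 183 CPM in edited embryos. In 8-cell embryos it stood at 334 and 409 CPM against 95.2 and 109 CPM. Edited and control libraries did not overlap at either stage, with log2 differences of -2.31 (SE 0.236, limma adjusted p 2.51e-06) and -1.85 (SE 0.236, limma adjusted p 4.62e-05). ANXA4, found mainly in epithelial cells, stood at 128 and 122 CPM in 4-cell controls against 15.3 and 42.5 CPM in edited embryos. In 8-cell embryos it stood at 49.8 and 48.7 CPM against 8.28 and 12.1 CPM. Its control libraries lay close together at each stage, whereas the 4-cell edited libraries differed from each other by more than the 8-cell ones. Its log2 differences were -2.24 and -2.19 (SE 0.366 each), with limma adjusted p of 0.000155 and 0.000442. CPM are not corrected for transcript length, so levels are compared here between libraries and not between genes.

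Both tested S100 genes followed the annexins. S100A10, the partner of ANXA2, stood at 1235 and 655 CPM in 4-cell controls and at 113 and 218 CPM in 4-cell edited embryos. In 8-cell controls it stood at 394 and 507 CPM and in 8-cell edited embryos at 86.0 and 57.0 CPM. The first 4-cell control library stood well above all others, and each edited library lay under each control library. The log2 differences of S100A10 were -2.51 (SE 0.330, limma adjusted p 2.32e-05) and -2.66 (SE 0.330, limma adjusted p 3.74e-05).

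S100A11, which binds ANXA1 and takes part in membrane repair, stood at 3339 and 1752 CPM in 4-cell controls and at 412 and 581 CPM in 4-cell edited embryos. At the 8-cell stage it stood at 1171 and 1370 CPM in controls and at 208 and 207 CPM in edited embryos. Its log2 differences were -2.30 (SE 0.272, limma adjusted p 8.95e-06) and -2.60 (SE 0.272, limma adjusted p 9.21e-06). S100A10 and S100A11 are neighbouring protein-coding genes in the RefSeq annotation of ARS-UCD2.0. Across the 8 libraries they had the highest Pearson r of the 28 pairs of tested members, 0.99, a description in which both genes share the libraries and their depth. In 4-cell controls both were higher in replicate 1 than in replicate 2, 1.89-fold for S100A10 and 1.91-fold for S100A11. The number of S100A11 reads per S100A10 read was 2.70 and 2.67 in those libraries. Replicates of each other group lay further apart in this ratio. Edited 4-cell embryos had 3.66 in replicate 1 but 2.67 in replicate 2. Edited 8-cell embryos had 2.42 against 3.63, whereas control 8-cell embryos had 2.98 against 2.70. The ratio was thus not constant over the 8 libraries.

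S100A4, a marker of fibroblasts and motile cells that binds non-muscle myosin, was near the detection limit and was not tested. Its reads numbered 10 and 55 in 4-cell controls, 6 and 3 in 4-cell edited, 3 and 26 in 8-cell controls, and 4 and 0 in 8-cell edited embryos. The higher reads lay in the second library of each control group, and control and edited libraries overlapped at the 8-cell stage. Without the filter on low values its averaged log2 difference was -0.54 (limma adjusted p 0.122). On the recovered reads, where no pseudocount of 1 CPM shrinks the value, the same comparison gave -2.71 with edgeR (unadjusted p 0.0422, adjusted p 0.0927) and -2.82 with DESeq2 (unadjusted p 0.0229, adjusted p 0.0567). S100A4 therefore had a negative estimate with each tool but passed the adjusted threshold with none of them.

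The galectins parted from each other. LGALS1, a dimeric galectin abundant in mesenchymal cells, stood at 579 and 543 CPM in 4-cell controls and at 140 and 177 CPM in 4-cell edited embryos. At the 8-cell stage its values were 310 and 507 CPM in controls and 79.0 and 84.1 CPM in edited embryos. The 8-cell controls differed more from each other than the 4-cell controls, and all edited libraries lay under them. The log2 differences were -1.82 (SE 0.244, limma adjusted p 2.73e-05) and -2.27 (SE 0.244, limma adjusted p 1.24e-05).

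LGALS3, the galectin with a collagen-like tail that gathers on damaged endosomes, stood at 105 and 113 CPM in 4-cell controls and at 140 and 132 CPM in 4-cell edited embryos. In 8-cell controls it stood at 92.8 and 123 CPM and in 8-cell edited embryos at 149 and 125 CPM. The lowest edited library lay just over the highest control library, an order that 9.98% of tested genes also showed. No comparison of LGALS3 passed the test. Its log2 difference was 0.31 (95% interval -0.17 to 0.79, limma adjusted p 0.284) at the 4-cell and 0.35 (95% interval -0.13 to 0.83, limma adjusted p 0.351) at the 8-cell stage. Averaged over both stages it was 0.33 (95% interval -0.0096 to 0.67, limma adjusted p 0.106). With CPM rescaled by TMM factors that average was 0.41 and passed, with an adjusted p of 0.0448, and over all alternatives its adjusted p ranged from 0.0448 to 0.605. LGALS3 therefore differed from the other tested members by the sign of its log2 difference, but a difference of LGALS3 itself between the conditions was called under that 1 scaling only.

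**Figure D2:**
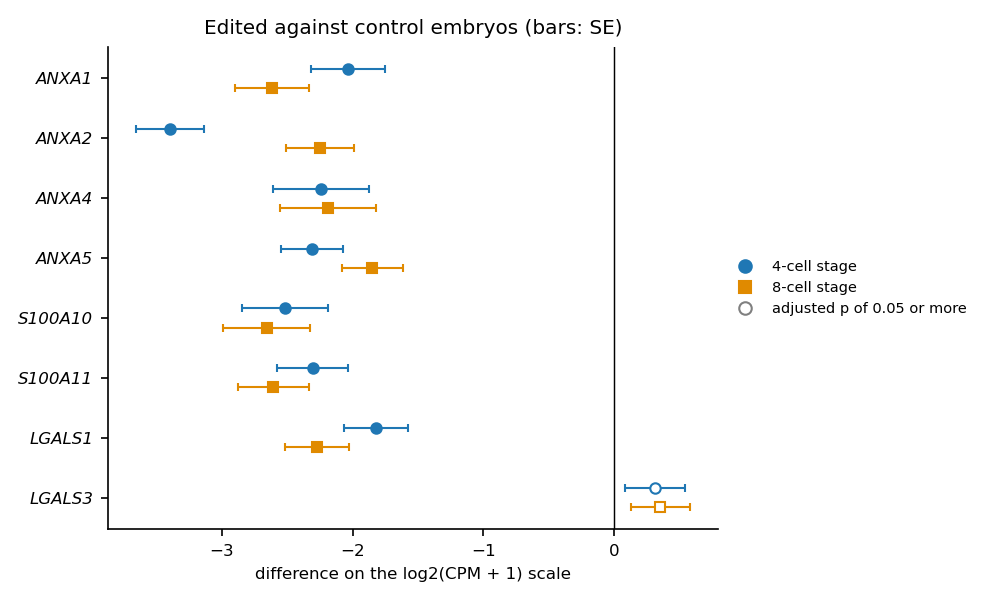
Difference between edited and control embryos on the log2(CPM + 1) scale (horizontal axis) for the 8 tested members at the 4-cell (circles) and the 8-cell stage (squares), with bars of 1 SE and open symbols for an adjusted p of 0.05 or more. Filled symbols of 7 members lie between -3.40 and -1.82, and both symbols of LGALS3 are open and lie at 0.31 and 0.35.

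Part of the markers of somatic follicle cells were also called lower in edited embryos. Of 20 listed cumulus and granulosa markers 17 were tested, and at the 4-cell stage 11 were called lower, 2 (HAS2 and GREM1) higher and 4 neither, against 25.8% of all tested genes called lower. At the 8-cell stage 5 were called lower, 0 higher and 12 neither, against 14.5% of all tested genes called lower. Their summed level was 1361 to 1716 CPM in 4-cell control, 449 to 490 CPM in 4-cell edited, 578 to 909 CPM in 8-cell control and 455 to 467 CPM in 8-cell edited libraries. This sum joins unlike genes. STAR and HAS2 held 174 and 124 of the 467 CPM in the first 8-cell edited library. Between 4-cell control and edited embryos the mean of CYP11A1 went from 214 to 8.93 CPM, that of STAR from 176 to 127 CPM and that of HAS2 from 39.8 to 128 CPM. LHCGR had no reads in 5 libraries, FOXL2 and AMHR2 had none in 4 each and TNFAIP6 none in 2. Of 10 theca and fibroblast markers 8 were tested, and 6 were called lower at each stage and 0 higher, against the same 25.8% and 14.5%. The 10 markers summed to 3164 to 6460 CPM, 1340 to 1976 CPM, 2647 to 3188 CPM and 133 to 791 CPM in the same order of groups. LUM made up most of this sum in each library, with 5965 CPM where it was highest. CYP17A1 had no reads in 5 libraries and COL3A1 none in 2. The part of these cell types in the members' differences was not tested. A covariate for the cumulus and granulosa list was fitted, but it did not overlap between edited and control libraries.

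Other cell types were covered more thinly. Of 10 epithelial markers 6 were tested, and at the 4-cell stage 4 were called lower and 1 higher, at the 8-cell stage 3 lower and 0 higher. Of all tested genes 25.8% and 14.5% were called lower at these stages. Of 12 oocyte and early embryo markers, all tested, 5 were called higher, 1 lower and 6 neither at the 4-cell stage, where 18.9% of all tested genes were called higher. At the later stage 2 were called higher and 10 not, against 1.08% of all tested genes called higher. Leukocyte markers summed to 15.8 to 28.5 CPM, with 3 of 8 tested and 1 of these called higher at the 8-cell stage. Endothelial markers summed to 52.9 to 136 CPM in control and 82.7 to 161 CPM in edited libraries, with 3 of 5 tested and 1 called higher at the 4-cell stage. Sperm markers summed to at most 15.6 CPM, and the 1 of 6 that was tested was called higher at the 8-cell stage. Of 4 erythroid markers 2 were in the table and summed to at most 0.659 CPM.

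**Figure D3:**
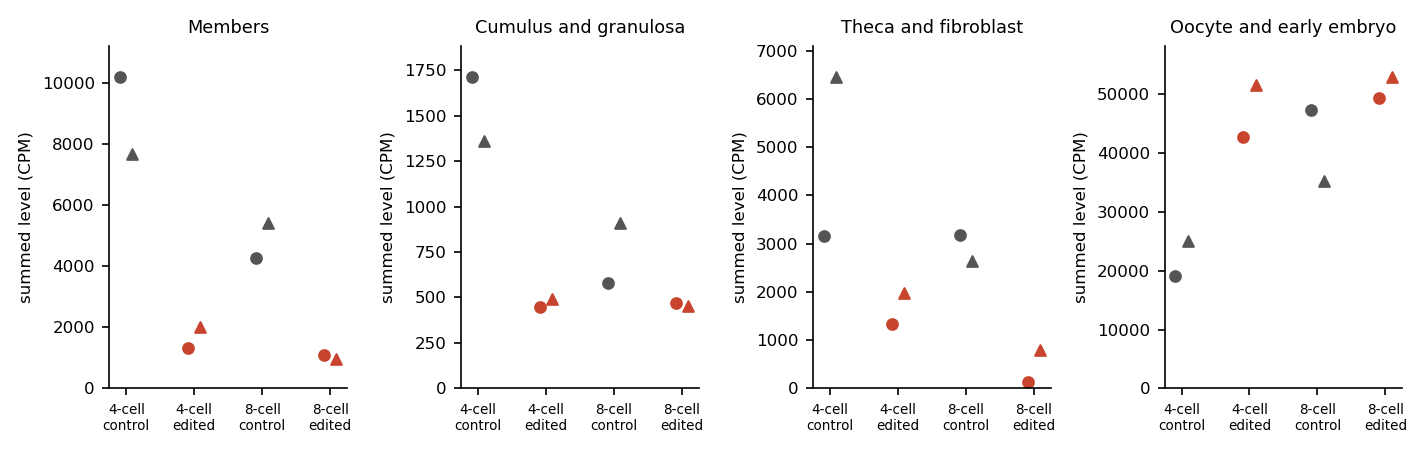
Summed level in CPM (vertical axes, linear, from 0, each with its own range) of the members and of 3 marker lists in the 8 libraries; grey is control, red edited, circles replicate 1 and triangles replicate 2. The members' sum is 7686 to 10205 CPM in 4-cell controls and 967 to 1994 CPM in edited libraries. The cumulus and granulosa sum is 1361 to 1716 CPM in 4-cell controls and 449 to 490 CPM in edited embryos. The oocyte sum is lowest in the 4-cell controls. BTG4 makes up most of the oocyte sum in each library, and LUM most of the theca and fibroblast sum.

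With the mean log2 level of the 20 cumulus and granulosa markers as a covariate, the 7 members kept negative differences, from -2.19 to -0.79 at the 4-cell and from -2.29 to -1.34 at the 8-cell stage. Of the members 0 were called at the 4-cell stage (3 at an unadjusted p under 0.05) and 1, S100A11, at the 8-cell stage (7 at an unadjusted p under 0.05). Limma then called 3 and 64 of the 12129 genes at the 2 stages, and 1706 and 1091 had an unadjusted p under 0.05. The covariate lay between 2.27 and 2.81 in edited and between 2.99 and 3.93 in control libraries, without overlap, so that in these libraries editing and the marker level cannot be told apart. Each of the other 17 alternatives called all 7 lower at both stages.

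The 7 lower members followed much the same order of groups. For 6 of them the mean fell from 4-cell control to 8-cell control, 4-cell edited and 8-cell edited embryos, and for ANXA2 both edited groups stood level, at 290 ± 105 CPM (SD, n = 2) and 305 ± 45.4 CPM (SD, n = 2). Between the neighbours in that order, each 8-cell control library lay over each 4-cell edited library in all 7. This follows from the separation of edited from control libraries given above and adds nothing to it. The share of all tested genes with this order of means was not computed. Among control embryos 4 of the 8 tested members were called lower in 8-cell than in 4-cell embryos and 0 higher, against 6.27% of all tested genes called lower and 2.75% higher. ANXA2 fell from 2972 ± 373 to 1465 ± 349 CPM (SD, n = 2; log2 difference -1.04, SE 0.261, limma adjusted p 0.0286). ANXA4 had a log2 difference of -1.32, ANXA5 one of -1.04 and S100A11 one of -0.93, with limma adjusted p between 0.0203 and 0.0440. S100A10 (-1.01, adjusted p 0.0619), LGALS1 (-0.50, adjusted p 0.186), ANXA1 (-0.32, adjusted p 0.480) and LGALS3 (-0.03, adjusted p 0.939) did not pass.

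The stage calls in controls depended on the fit. Without the first 4-cell control library the log2 difference was -0.91 for ANXA2, -1.29 for ANXA4, -0.86 for ANXA5 and -0.47 for S100A11. Without the first 8-cell control library the same genes had -0.79, -1.34, -0.89 and -0.82. Fits of this kind leave 1 library in a group, so only the size of the difference is given here. No member passed with edgeR or without a filter on low values, with 5 at an unadjusted p under 0.05 in each of these. Over all genes 3319 of 14629 with edgeR and 3718 of 16606 without a filter had an unadjusted p under 0.05. Called in either direction were 86 of all genes with edgeR and 0 without a filter. DESeq2 called 5 members and 1629 of 16606 genes. The adjusted p of ANXA2 ranged from 0.00926 to 0.523 over the alternatives.

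In edited embryos 2 members, S100A11 and LGALS1, were called lower at the 8-cell stage and 0 higher, against 3.73% of all tested genes called lower and 1.45% higher. S100A11 fell from 496 ± 120 to 207 ± 0.939 CPM (SD, n = 2; log2 difference -1.23, SE 0.272, limma adjusted p 0.0195), and LGALS1 from 159 ± 26.4 to 81.5 ± 3.64 CPM (SD, n = 2; log2 difference -0.94, SE 0.244, limma adjusted p 0.0367). ANXA4 (-1.27, adjusted p 0.0542), S100A10 (-1.15, adjusted p 0.0542), ANXA1 (-0.90, adjusted p 0.0772) and ANXA5 (-0.58, adjusted p 0.169) did not pass, nor did ANXA2 at 0.11 and LGALS3 at 0.0060. In the 4-cell edited group the second library was higher than the first for 7 of the 8 members, with a ratio of the first to the second as low as 0.360 for ANXA4. The number called was 0 with edgeR or without a filter (6 at an unadjusted p under 0.05 in each), where 324 and 5 of all genes were called. It was 5 with DESeq2 (1286 of 16606 genes called) or with only the libraries compared (1149 of 12129). Without the second 4-cell edited library the log2 difference was -0.99 for S100A11 and -0.77 for LGALS1. Without the first 8-cell edited library these genes had -1.24 and -0.90, and without the second -1.23 and -0.99. Over all genes 2865 of 14629 with edgeR and 2773 of 16606 without a filter had an unadjusted p under 0.05.

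**Figure D4:**
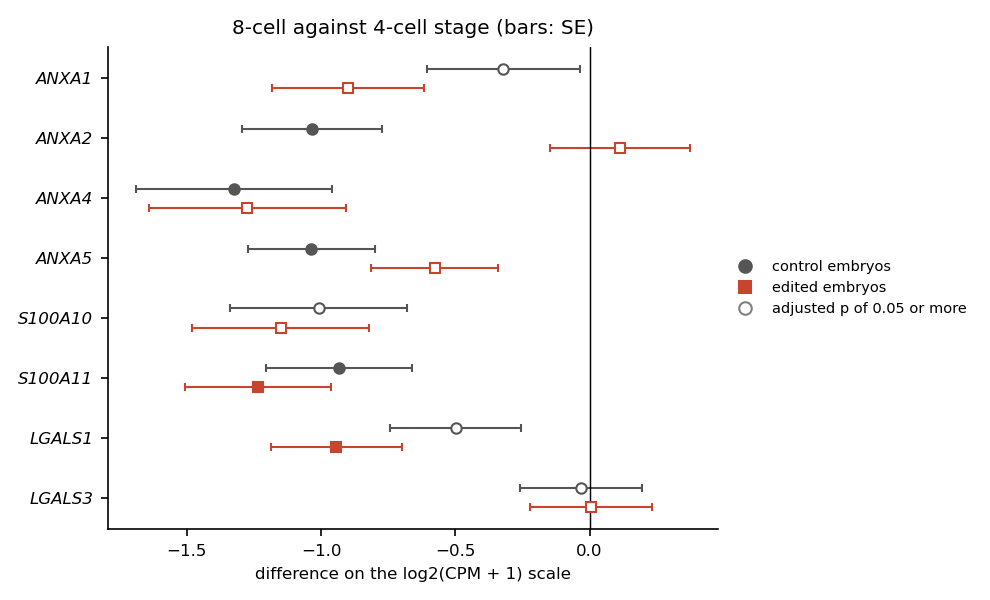
Difference between the 8-cell and the 4-cell stage on the log2(CPM + 1) scale (horizontal axis) for the 8 tested members in control (circles) and edited embryos (squares), with bars of 1 SE and open symbols for an adjusted p of 0.05 or more. ANXA2 lies at -1.04 in controls and at 0.11 in edited embryos, and LGALS3 lies near 0 in both.

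Whether the edited-control gap differed between the stages was tested directly. Of the 8 members 0 passed (limma), against 3.96% of all tested genes, and edgeR and DESeq2 also called 0 members. At an unadjusted p under 0.05 limma had 1 member, against 2800 of all 12129 tested genes. That 1 was ANXA2, whose log2 difference was less negative at the 8-cell stage by 1.15 (SE 0.369, limma adjusted p 0.0833). It passed without the second 4-cell control library (1.28, adjusted p 0.0396) and without the second 8-cell control library (1.39, adjusted p 0.0492), and its adjusted p ranged up to 0.288 over the alternatives. The other 7 differences between stages lay between -0.58 for ANXA1 and 0.46 for ANXA5.

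Because ANXA2 and S100A10 form 1 complex, their reads were set against each other within each library. The number of ANXA2 reads per S100A10 read was 2.62 and 4.13 in 4-cell controls and 1.92 and 1.67 in 4-cell edited embryos. It was 3.09 and 3.37 in 8-cell controls and 3.92 and 4.79 in 8-cell edited embryos. The ratio was thus lower in edited embryos at the 4-cell stage and higher at the 8-cell stage, without overlap at either. This ratio was chosen after its values were seen and was not tested. How many other gene pairs separate in this way was not computed. Across the 8 libraries the log2 levels of both genes correlated with a Pearson r of 0.94, a description over libraries that share their groups and depth. Ranked by r with S100A10, ANXA2 came 616 of 7435 genes that averaged 10 CPM or more.

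Among the tested members each of the 7 that were lower correlated with the mean of the other members at a Pearson r of 0.93 to 0.98 over the 8 libraries, and LGALS3 at -0.72. The 5 other genes most like the members' mean profile, among those with a mean of at least 10 CPM, were STRA6, REEP5, DUSP11, PRKAG2 and LAMA1, with Pearson r of 0.99 each over 8 libraries. LAMA1, a laminin chain of basement membranes, stood at 51.3 and 52.6 CPM in 4-cell controls and at 6.83 and 11.03 CPM in 4-cell edited embryos. In 8-cell embryos it stood at 20.0 and 40.0 CPM against 4.66 and 4.67 CPM. STRA6, a receptor for retinol-binding protein, stood at 154 and 110 CPM against 13.8 and 19.2 CPM at the 4-cell stage and at 36.3 and 79.1 CPM against 6.78 and 3.95 CPM at the 8-cell stage. These genes were picked for their likeness, which therefore carries no test.

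Beyond the members, 22 further annexin, S100 and galectin genes were in the table and 14 of them were tested. At the 4-cell stage 7 were called lower and 1 higher in edited embryos, against 25.8% and 18.9% of all tested genes, and at the 8-cell stage 6 were called lower and 0 higher, against 14.5% of all tested genes called lower. Their median log2 difference was -1.04 and -1.22 at the 2 stages. Averaged over both stages 9 of the 14 were called lower and 2 higher, against 27.2% and 17.6% of all tested genes. S100A16, a broadly expressed S100 protein, had the largest 4-cell difference of those with a mean of at least 10 CPM, with 143 and 107 CPM in controls and 17.7 and 15.6 CPM in edited embryos (log2 difference -2.82, SE 0.281, limma adjusted p 1.96e-06). At the 8-cell stage it stood at 43.3 and 63.9 CPM against 23.0 and 18.7 CPM (-1.30, SE 0.281, limma adjusted p 0.00371). Edited libraries thus lay under control libraries at both stages, with a narrower gap at the 8-cell stage.

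ANXA3, ANXA6, S100A14 and S100A2 were also called lower at both stages, with log2 differences from -2.25 to -1.89 at the 4-cell and from -1.91 to -1.22 at the 8-cell stage. ANXA6, the annexin with a doubled core, stood for example at 30.9 and 20.5 CPM against 3.44 and 5.79 CPM at the 4-cell stage. LGALS8, a galectin that marks damaged vesicles, was called lower at the 4-cell stage only (-1.04, limma adjusted p 0.00875), with 32.1 and 27.2 CPM against 12.9 and 14.8 CPM, and had -0.13 at the 8-cell stage (adjusted p 0.819). It did not pass without the first 4-cell control library (-0.93, adjusted p 0.0650). The difference between its effects was itself not called (0.91, limma adjusted p 0.200).

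A smaller set of the family did not follow. S100Z was called higher in edited embryos at the 4-cell stage, with 31.4 and 19.8 CPM against 5.42 and 14.6 CPM (log2 difference 1.38, SE 0.388, limma adjusted p 0.00888). It did not pass without the first 4-cell control library (0.74, limma adjusted p 0.148) or without the first 4-cell edited library (1.06, adjusted p 0.112). ANXA7, S100B and LGALS4 passed at neither stage, with log2 differences of 0.45, 0.48 and 0.65 at the 4-cell and 0.17, -0.21 and 0.74 at the 8-cell stage. LGALS4 passed as higher at the 4-cell stage without the second 4-cell control library (0.90, limma adjusted p 0.0431) and at the 8-cell stage without the first 8-cell control library (1.204, limma adjusted p 0.0194). Without the second 8-cell edited library 0 of the 14 passed at the 8-cell stage, and without the second 8-cell control library 3 passed. With the marker covariate 0 passed at either stage.

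**Figure D5:**
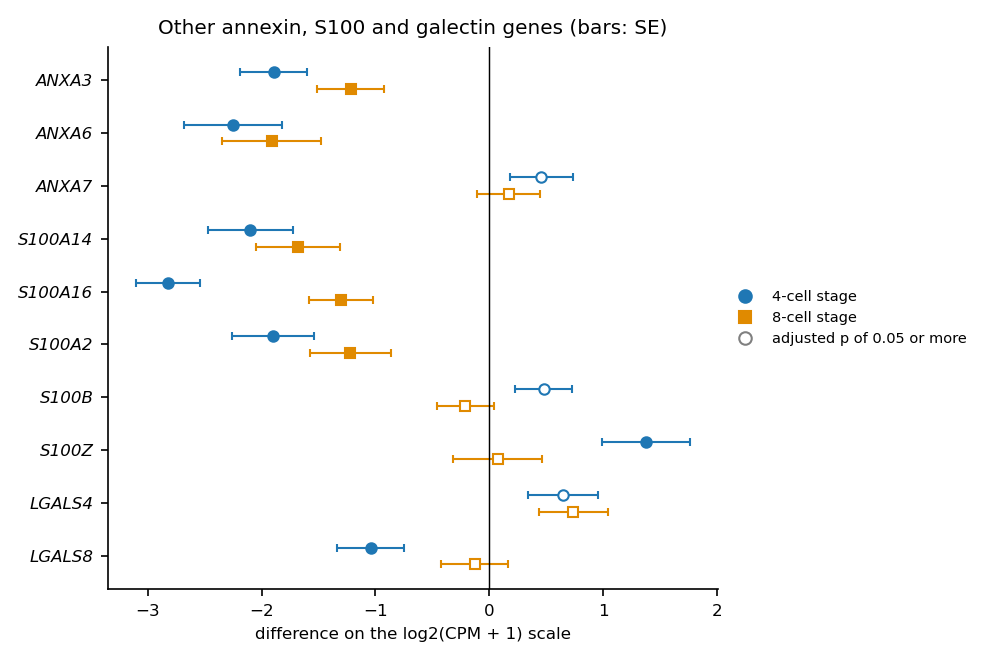
Difference between edited and control embryos on the log2(CPM + 1) scale (horizontal axis) for the 10 further family genes that averaged 10 CPM or more, at the 4-cell (circles) and the 8-cell stage (squares), with bars of 1 SE and open symbols for an adjusted p of 0.05 or more. ANXA3, ANXA6, S100A14, S100A16 and S100A2 lie at -1.22 or lower at both stages, and ANXA7, S100B and LGALS4 have open symbols.

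Partners of these proteins were examined as a list of 29 receptors, ligands, calpains and membrane repair genes, of which 25 were in the table and 21 tested. At the 4-cell stage 12 were called lower and 0 higher in edited embryos, and at the 8-cell stage 8 lower and 0 higher, against 25.8% and 14.5% of all tested genes called lower. Their median log2 difference was -1.13 and -0.49. LGALS3BP, a secreted glycoprotein ligand of galectins, stood at 124 and 79.4 CPM in 4-cell controls and at 3.41 and 6.70 CPM in edited embryos, and at 21.9 and 64.6 CPM against 4.12 and 3.89 CPM at the 8-cell stage. Its log2 differences were -4.10 (SE 0.437, limma adjusted p 3.62e-06) and -2.95 (SE 0.437, limma adjusted p 0.000157). The ligand and LGALS3 itself thus differed in sign.

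PLAT, tissue plasminogen activator, whose activity the ANXA2 and S100A10 complex promotes at the cell surface, stood at 433 and 245 CPM against 41.9 and 56.2 CPM at the 4-cell stage. In 8-cell embryos it stood at 89.8 and 129 CPM against 16.05 and 21.2 CPM, with log2 differences of -2.72 and -2.48 (SE 0.297 each, limma adjusted p 4.59e-06 and 2.89e-05). BSG, basigin, a membrane glycoprotein, stood at 378 and 325 CPM against 37.6 and 39.9 CPM in 4-cell embryos, and at 104 and 141 CPM against 59.1 and 51.9 CPM in 8-cell embryos (log2 differences -3.15 and -1.11, limma adjusted p 6.14e-07 and 0.00307). With the marker covariate 0 of the 21 partner genes passed at either stage.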

How the data were processed

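The authors deposited 1 table of CPM (counts per 1000000 reads) for 16606 genes, although it is labelled as raw reads; per the submitters' processing notes Trim Galore 0.6.7, HISAT2 2.2.1 and featureCounts 2.0.1 were used. Their roles, the genome build, the annotation and the handling of reads from near-identical genes are not given in the sources used here. Of 12 columns 4 match no sample and were not used. Every positive value was a whole multiple of 1 read within 0.05 reads, so reads were recovered. Differences were tested with limma 3.58.1 (R 4.3.3) on log2(CPM + 1), 1 mean per group over 8 libraries, for 12129 genes that averaged 1 CPM or more, with Benjamini-Hochberg adjustment over all of them and two-sided tests. Calls had an adjusted p under 0.05. Alternatives were edgeR 4.0.16, DESeq2 1.42.0, other pseudocounts, filters and scaling, a replicate block, a marker covariate, only the compared libraries, and each library left out. The scripts were checked on simulated data. Members and lists were chosen with earlier results of these data known. Named were all members, further family genes that averaged 10 CPM or more, up to 3 partners called in each direction with the lowest p at the 4-cell stage (none was called higher), the 5 genes most like the members, and RPL12. Marker genes and the ANXA2 to S100A10 ratio were named after their values were seen.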

Additional observations from a re-analysis of the deposited data

Results flagged for a closer look

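The gap between edited and control embryos passed a direct test of a difference between the stages for S100A16 and BSG, but not under all alternatives. They were 1 of the 14 tested further family genes and 1 of the 21 tested partner genes, against 3.96% of all tested genes called. For S100A16 the 8-cell log2 difference minus the 4-cell one was 1.52 (SE 0.398, limma adjusted p 0.0441), and over the alternatives the adjusted p ranged from 0.00557 to 0.214. It passed in 6 of 17 alternatives and was lost, among others, with edgeR (0.0845), TMM scaling (0.0519) and the replicate block (0.0551). For BSG it was 2.03 (SE 0.332, limma adjusted p 0.0117), with adjusted p from 1.60e-05 to 0.103 over the alternatives, of which 11 of 17 passed. It was lost with edgeR (0.0590). Both genes were lower in edited embryos at both stages, with the narrower gap at the 8-cell stage. BSG was named by its low 4-cell p, and S100A16 had the largest 4-cell difference of the further family genes named. The direct test uses those 4-cell values again, so a gap picked as large there tends to be narrower at the other stage. The ANXA2 to S100A10 ratio in edited over control embryos was 0.531 in 4-cell and 1.35 in 8-cell embryos. Each library of the edited group lay on the same side of its controls, in opposite directions at the 2 stages, and this difference was not tested.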

How the results depend on the processing

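The 7 lower members kept their sign at both stages under every alternative run, and their calls under all but the marker covariate, which called 0 at the 4-cell stage, 1 at the 8-cell stage and 0 averaged. For the stage difference in controls 4 members were called, but 0 without a filter, with edgeR or with the covariate. The number was 1 with TMM scaling or only the libraries compared, and it also changed with 1 library left out. In edited embryos 2 were called, but 0 without a filter or with edgeR, 5 with DESeq2 or only the libraries compared and 1 with the covariate. This number also changed with 1 library left out. For the difference between stages 0 to 1 were called with 1 library left out. The cause was not tested.

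Signs changed for the values that follow. The difference between stages of ANXA4 was -0.28 with edgeR, -0.19 with DESeq2, -0.022 with TMM scaling and -0.13 with the covariate, and that of LGALS3 -0.037 with edgeR, -0.033 with TMM and -0.094 with the covariate. With 1 library left out it ranged from -0.66 to 0.76 for ANXA4, from -0.62 to 0.33 for S100A10, from -0.77 to 0.16 for S100A11 and from -0.16 to 0.24 for LGALS3. The stage difference in controls was 0.0062 with edgeR and 0.19 with the covariate for LGALS3 (-0.23 to 0.17 with 1 library left out) and 0.11 with the covariate for ANXA1. In edited embryos it was -0.031 with edgeR, -0.041 with DESeq2 and -0.034 with TMM for LGALS3 (-0.12 to 0.13 with 1 library left out), and -0.0096 with DESeq2 for ANXA2 (-0.26 to 0.49). With the covariate LGALS4 had -0.52 in 4-cell and -0.14 in 8-cell embryos, S100Z -0.31 and S100A2 0.068 at the 8-cell stage, where S100A2 without the covariate had -1.22 and was called lower. With 1 library left out, S100Z ranged from -0.12 to 0.26 and LGALS8 from -0.30 to 0.041 at the 8-cell stage.

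Same-numbered libraries did not deviate together (correlations of 0.11 among 4-cell and -0.09 among 8-cell libraries, -0.30 in controls and 0.02 in edited embryos), so the numbers were not taken as pairs. With a replicate block 7, 7 and 7 members were called at the 4-cell stage, the 8-cell stage and averaged, 0 for the difference between stages, 4 for stage in controls and 4 for stage in edited embryos. Crossing the numbers of the 8-cell controls, an alternative chosen after seeing the data, called 4 members and 1690 genes for stage in controls, against 985 with the numbers as given and 1094 without a block.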
